A study of Mus musculus with 3 samples.

Results

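Transcripts of the NF-κB subunits, their inhibitors and 2 enzymes that control them were measured in 3T3-L1 adipocytes, cultured fat cells that are made by differentiating a line of mouse fibroblasts. The set was a fixed list of 10 genes: the subunits Nfkb1, Nfkb2, Rel, Rela and Relb, the inhibitors Nfkbia, Nfkbib and Nfkbie, the ubiquitin-editing enzyme gene Tnfaip3 and the kinase gene Ikbkb. Its members were taken as all probe sets that the array annotation assigned to that gene alone, which gave 21 probe sets for 9 of the 10 genes, out of 34958 such probe sets for 18194 genes. Nfkb1 was not analysed here. Tnfaip3 and Ikbkb encode neither a subunit nor a direct inhibitor of one, so the set is wider than its name.

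The 3 samples were 3T3-L1 cells exposed to glucose oxidase, an enzyme that releases hydrogen peroxide as it oxidises glucose, and they formed 1 group, for which the labels name no other genotype or agent. The exposure lasted 2 h, a time that the labels do not give and that was taken from the article's text. The labels call the cells insulin resistant adipose cells and also name preadipocytes as their tissue, while the growth protocol describes differentiated adipocytes. Control arrays were not analysed here, so every value is a level after treatment, with no fold change and no test of the treatment. No source used here states whether each sample had its own culture, so differences between replicates could be technical, and 1 cell line in culture is a limited model of fat tissue.

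NF-κB is a family of transcription factors that act as dimers. In resting cells the dimers are held in the cytoplasm by IκB proteins, which the IκB kinase (IKK) complex marks for degradation after signals such as tumour necrosis factor, interleukin 1 or bacterial products. The freed dimers then enter the nucleus and bind κB sites, and among their known targets are the genes of IκBα and A20, which shut the response down again. In fat cells the pathway is known for its part in inflammation and its link to insulin resistance, and peroxide is known to act on several of its proteins. None of this control by degradation and nuclear entry is visible in transcript levels.

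The κB matches in the members' own promoter windows are printed, since members of the family are themselves among its known targets. RefSeq promoter windows (assembly GRCm38.p6, 250 bases before to 50 bases after an annotated start) were found for 7 of the 10 genes, but not for Nfkb1, Relb and Ikbkb. The κB consensus was searched on both strands, and overlapping matches were joined to 1 site. At least 1 match was found for 5 of these 7 genes, against 1388 of 27025 genes (5.14%) with a window of the same length. A gene counted if any of its windows matched. By window, a match was found in 7 of 10 for these genes, against 1480 of all 32851 windows (4.51%). Capitals mark the match and lower case its flanks, written 5′ to 3′ on the strand of the gene.
Nfkbia, 29 bases before its start, chr12:55492657-55492686, minus strand: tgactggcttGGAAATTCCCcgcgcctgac
Tnfaip3, 12 bases before its start, chr10:19015403-19015432, minus strand: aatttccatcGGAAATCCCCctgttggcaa
Tnfaip3, 125 bases before its start, chr10:19015516-19015545, minus strand: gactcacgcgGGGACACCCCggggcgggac
Nfkbie, 106 bases before its start, chr17:45555584-45555613, plus strand: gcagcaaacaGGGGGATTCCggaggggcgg
Rel, 92 bases before its start, chr11:23771042-23771070, minus strand: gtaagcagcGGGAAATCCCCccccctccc
Nfkb2, 39 bases before its first start, chr19:46304689-46304717, plus strand: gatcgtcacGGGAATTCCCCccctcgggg
Nfkb2, 11 bases before its first start, chr19:46304716-46304745, plus strand: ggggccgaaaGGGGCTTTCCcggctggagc

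Nfkb2 has 3 annotated starts in the table and held 4 distinct sites, of which the pair at the first start is shown. No match lay in the windows of Rela and Nfkbib or at the second start of Tnfaip3. Of the other pathway lists, a match was found for 11 of 24 known NF-κB target genes and 6 of 11 further inhibitors and negative regulators, but for 2 of 23 genes of the IKK complex and upstream signalling. A match of these letters is a description of the window and not evidence that a factor was bound there in these cells.

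**Figure D1:**
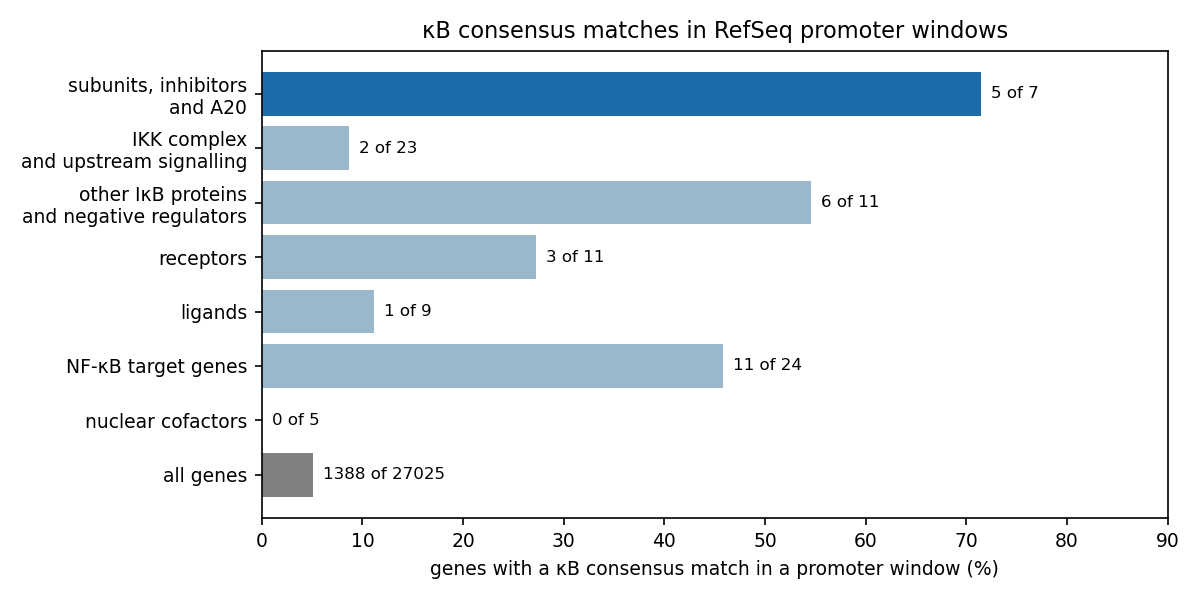
Share of genes (x axis, %) with at least 1 κB consensus match in a RefSeq promoter window, by role of the gene (y axis), with the number of genes beside each bar. The bar of the members with a window (Nfkb2, Rel, Rela, Nfkbia, Nfkbib, Nfkbie and Tnfaip3) stands at 5 of 7 and that of all genes at 1388 of 27025.

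The values are probe set intensities from the mouse4302 Affymetrix array, and log2 was taken of each. The arrays' median intensities were 126.9 to 127.6. A probe set was called above background if it exceeded a log2 intensity of 7.58 in all 3 arrays, the 95th percentile of 83 chemoreceptor probe sets (smell, pheromone and taste). Of markers fixed for each cell type, 9 of 10 for adipocytes and 8 of 9 for preadipocytes and fibroblasts passed this line, as did 4 of 12 macrophage, 3 of 7 lymphocyte and 1 of 7 endothelial genes. The macrophage genes Adgre1, Cd68, Ptprc and Itgam were not above background, whereas Lyz2, Csf1r, Cd14 and Fcgr1 were. Levels of different probe sets also depend on their probes, so no order of levels between genes was read, and the highest mean among the probe sets of a gene served only to choose the 1 that represents it.

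Of the 9 members measured, 8 were above background, against 54.4% of all genes, and Rel was the exception. By probe set the count was 16 of 21, against 45.1% of all probe sets assigned to 1 gene. A gene with several probe sets has more chances to pass, and the share of all genes above background was 69.8% with 2 or more probe sets and 39.2% with 1. All 6 members with 2 or more probe sets passed, and of the 3 with 1 probe set Rela and Relb passed. In these bulk samples a lower level could be fewer cells with the transcript or less transcript per cell, and the data cannot tell these apart.

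**Figure D2:**
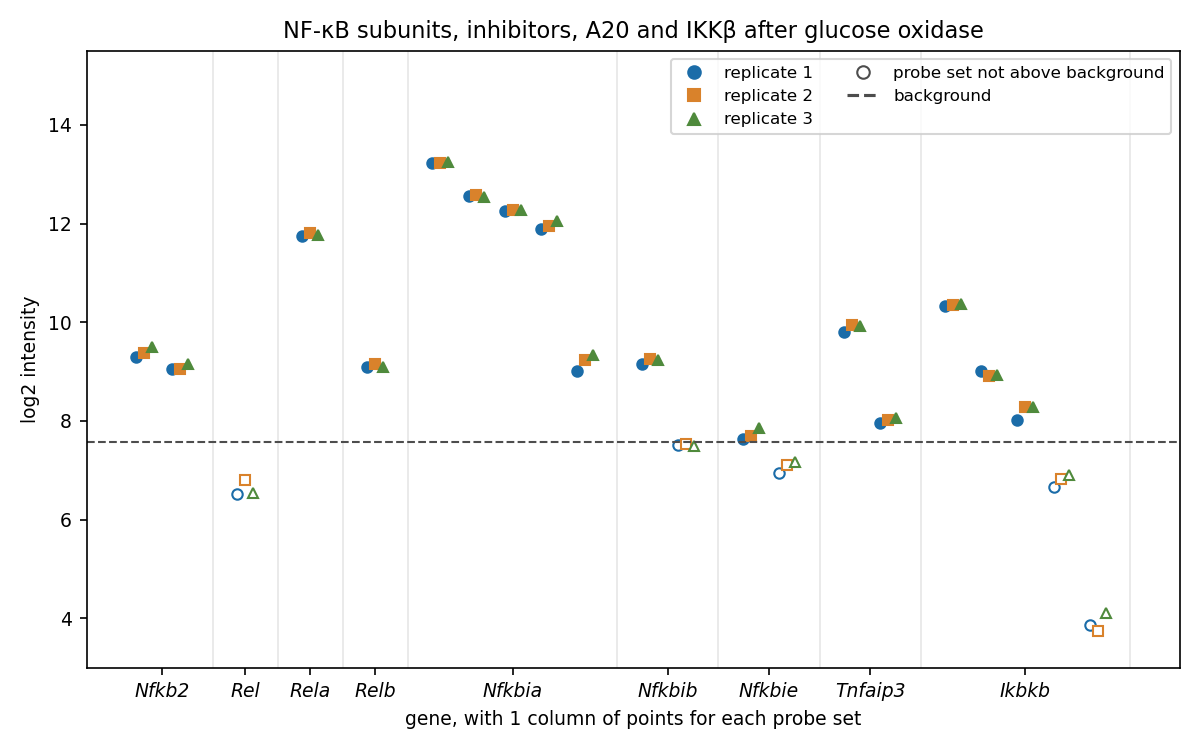
Log2 intensity (y axis) of all 21 probe sets of the 9 genes measured (x axis, 1 column of points per probe set), with 1 symbol per replicate, open symbols for probe sets not above background and background as a dashed line at 7.58. Rel lies below the line in all 3 arrays, all 5 columns of Nfkbia lie above it, and Ikbkb, Nfkbib and Nfkbie have columns on both sides. Heights of different probe sets are not comparable.

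Among the subunits with a transactivation domain, Rela and Relb were above background and Rel was not. Rela encodes p65, the main activating partner in most cell types, and its probe set was at a log2 intensity of 11.76, 11.81 and 11.76 in replicates 1, 2 and 3 (mean 11.78 ± 0.03 SD, n = 3). Relb encodes the subunit that pairs with p52 in the non-canonical pathway, and it was at 9.10, 9.16 and 9.10 (9.12 ± 0.03 SD, n = 3). For both genes the arrays differed little, with the highest array 1.04-fold above the lowest.

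Rel encodes c-Rel, a subunit best known from lymphocytes. Its probe set was at 6.52, 6.80 and 6.55 (6.62 ± 0.16 SD, n = 3), so replicate 2 was the highest and no array reached background. This rests on 1 probe set, and not passing does not show that the transcript was absent. Of the 7 measured lymphocyte markers Cd3g, Cd79a, Cd79b and Ms4a1 were not above background either. Cd3e was, on its 1 probe set, as were Cd4 on 1 of 2 and Cd8a on 1 of 5.

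Nfkb2 encodes p100, which holds Relb in the cytoplasm until it is cut to p52. Both of its probe sets were above background. One was at 9.30, 9.37 and 9.50 (9.39 ± 0.10 SD, n = 3) and the other at 9.05, 9.05 and 9.15 (9.08 ± 0.06 SD, n = 3). Replicate 3 was the highest on both probe sets, by 1.14-fold and 1.07-fold over the lowest array. The transcript of this p100 precursor and that of Relb, its partner, were thus both above background, the latter on its 1 probe set. The identifiers of the Nfkb2 probe sets end in _a_at and _x_at, kinds that can match several transcripts.

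Nfkbia encodes IκBα, the inhibitor that is degraded and resynthesised fastest, and all 5 of its probe sets were above background. The probe set with the highest mean was at 13.23, 13.22 and 13.24 (13.23 ± 0.012 SD, n = 3). Its 3 arrays lay within 1.02-fold of each other, the narrowest spread among the members. A further pair of probe sets, at means of 12.55 and 12.27, had SDs of 0.022 and 0.012. The identifiers of this pair end in _s_at, a kind that can match transcripts of other genes.

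The remaining pair of Nfkbia probe sets varied more. One was at 11.89, 11.94 and 12.05 (11.96 ± 0.08 SD, n = 3), and the other at 9.02, 9.24 and 9.35 (9.20 ± 0.17 SD, n = 3). On both, replicate 1 was the lowest and replicate 3 the highest, by 1.12-fold and 1.26-fold. The other 3 probe sets of the gene differed by at most 1.03-fold, so the difference between arrays was not shared by all of them.

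Nfkbib encodes IκBβ, which is degraded more slowly than IκBα. One of its probe sets was above background, at 9.16, 9.26 and 9.24 (9.22 ± 0.05 SD, n = 3). The other lay just under it, at 7.52, 7.54 and 7.50 (7.52 ± 0.02 SD, n = 3). The first has an identifier ending in _s_at, which marks probes that can match transcripts of other genes, so the call for Nfkbib rests on that probe set.

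Nfkbie encodes IκBε, another inhibitor of the family. One of its probe sets was at 7.64, 7.70 and 7.86 (7.74 ± 0.11 SD, n = 3), above background in all 3 arrays by a small margin, and it too is of the _s_at kind. The other, at 6.94, 7.11 and 7.18 (7.08 ± 0.12 SD, n = 3), was not above background. Replicate 3 was the highest on both, by 1.16-fold and 1.17-fold over replicate 1. Leaving out _s_at and _x_at probe sets, an alternative added after seeing the data, left 6 of 9 members above background, without Nfkbib and Nfkbie, against 53.0% of all genes under that setting. With the 99th percentile as background, at a log2 intensity of 8.05, the count was 7 of 9, without Nfkbie, against 47.8% of all genes.

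Tnfaip3 encodes A20, which removes and adds ubiquitin on signalling proteins upstream of IKK and so ends the response. Both of its probe sets were above background. They were at 9.81, 9.94 and 9.93 (9.89 ± 0.07 SD, n = 3) and at 7.96, 8.02 and 8.07 (8.02 ± 0.05 SD, n = 3). Replicate 1 was the lowest on both, with the highest array 1.10-fold and 1.08-fold above it.

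Ikbkb encodes IKKβ, the kinase that marks IκBα for degradation in the canonical pathway. Of its 5 probe sets, 3 were above background, the first at 10.33, 10.35 and 10.37 (10.35 ± 0.02 SD, n = 3). The next were at 9.01, 8.92 and 8.92 (8.95 ± 0.05 SD, n = 3) and at 8.02, 8.28 and 8.28 (8.20 ± 0.15 SD, n = 3). The highest array was replicate 3 on the first, replicate 1 on the second and replicate 3 on the third, so these 3 probe sets did not rank the arrays alike. The 2 probe sets not above background had means of 6.80 and 3.91. Probe sets of 1 gene can detect different transcripts, so a gene above background need not have every transcript above it.

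Over all 3 arrays the spread was of similar size for the members and for all genes. The median SD of the 8 members above background was 0.044 on the log2 scale, and that of all 9889 genes above background was 0.048. Of the 8, Nfkb2 and Nfkbie had an SD over 0.096, the 90th percentile of all genes above background. Over the 16 member probe sets above background the median SD was 0.054, against 0.051 for all 15775. Without replicate 1, the median SD was 0.025 for the members and 0.038 for all genes above background, and without replicate 3 it was 0.042 and 0.035, so which of the medians was higher changed with the arrays used.

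Replicate 1 was the highest array for 0 of the 8 members, replicate 2 for 4 (Rela, Relb, Nfkbib and Tnfaip3) and replicate 3 for 4 (Nfkb2, Nfkbia, Nfkbie and Ikbkb). Over all genes above background these shares were 23.6%, 35.5% and 40.8%. By probe set the split was less even. Of the 16 member probe sets above background, 1 was highest in replicate 1, 5 in replicate 2 and 10 in replicate 3. These probe sets are not independent, since Nfkbia gave 5 of them and Ikbkb 3. The shares of all probe sets above background were 22.7%, 34.0% and 43.3%. Replicate 1 was the lowest array for 6 of the 8, against 44.7% of all genes above background. The whole of replicate 1 lay slightly low among such genes, at a median departure of -0.014 from the mean of the arrays. The ratio of 3′ to 5′ signal of actin, a sign of RNA quality, was 1.70, 1.58 and 1.54 in replicates 1, 2 and 3, and that of Gapdh was 1.11, 1.14 and 1.10. Replicate 1 was thus the highest for actin but not for Gapdh, and the part of RNA quality in these differences was not tested. The departures of the 8 members from their mean ran from -0.093 for Nfkbie in replicate 1 to 0.13 for the same gene in replicate 3.

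**Figure D3:**
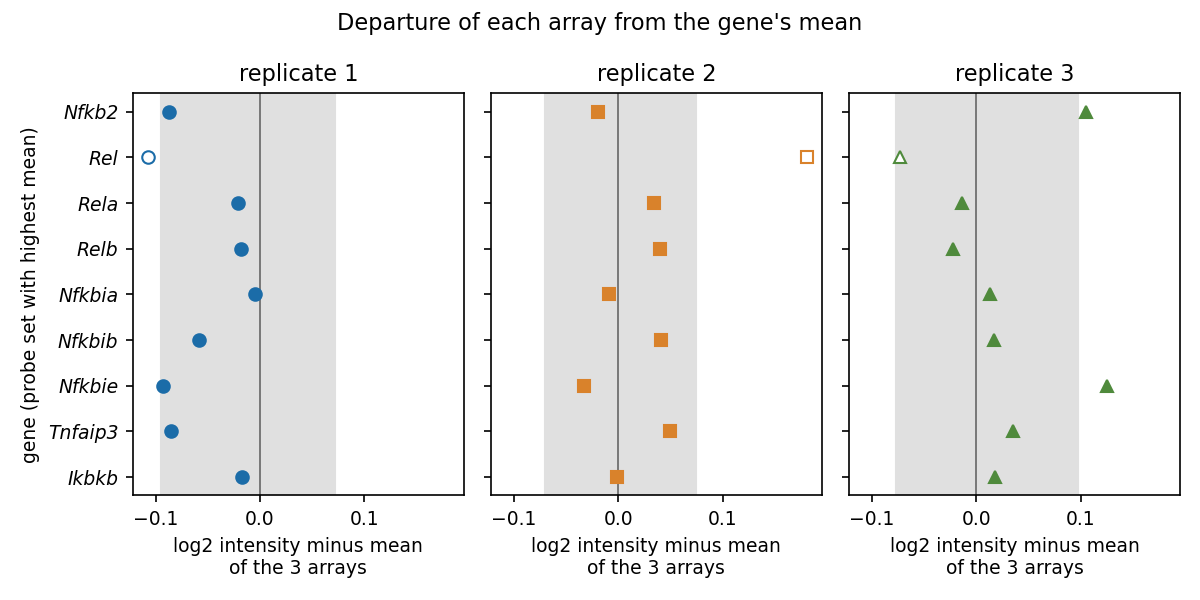
Departure of each array's log2 intensity from the mean of the 3 arrays (x axis) for the probe set with the highest mean of each of the 9 genes measured (y axis), with 1 panel per replicate, an open symbol for Rel, which was not above background, and the range from the 5th to the 95th percentile of all genes above background in grey. All points of replicate 1 lie left of 0, and in replicate 3 Nfkb2 and Nfkbie lie right of the grey range. Rel lies left of the grey range in replicate 1 and right of it in replicate 2.

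Of 98 measured genes in 6 lists of other NF-κB genes, 72 were above background, beside 54.4% of all genes. The share differed by role, from 23 of 23 for signalling genes to 0 of 10 for ligands. It also depends on the probe sets per gene, at 69.8% of all genes with 2 or more and 39.2% with 1. The lists were not matched for this number. With the 99th percentile as background, 64 of the 98 passed, against 47.8% of all genes. These lists are counts of levels after treatment, and nothing in them separates induced transcripts from those present without it.

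All 23 measured genes of the IKK complex and upstream signalling were above background, against 54.4% of all genes. Of the 23, Map3k14, Traf6 and Ikbke had means of 8.01, 7.87 and 7.82. They lay under the stricter line of 8.05, the 99th percentile. Ikbkg, which encodes the regulatory subunit NEMO of the kinase complex that holds IKKβ, was at 10.50, 10.57 and 10.60 (10.55 ± 0.05 SD, n = 3), and all 6 of its probe sets passed. Ripk1, Traf3, Irak4 and Chuk, which encodes IKKα, were not analysed here. Map3k7, which encodes the kinase TAK1 that activates IKKβ, was at 9.47 ± 0.08, with 2 of 6 probe sets above background. The adaptor genes Myd88, Traf2 and Traf6 were at 10.73 ± 0.06, 8.95 ± 0.07 and 7.87 ± 0.07, and Tbk1, which encodes an IKK-related kinase, at 10.19 ± 0.03 (SD, n = 3). Traf6, the adaptor of interleukin 1 and Toll-like receptors, passed on 1 of its 5 probe sets.

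Of 16 further inhibitors and negative regulators, 15 were above background, against 54.4% of all genes. Nfkbiz encodes the nuclear protein IκBζ, and it was at 10.87, 10.83 and 10.84 (10.85 ± 0.02 SD, n = 3), with all 3 probe sets above background. Bcl3, an atypical IκB that works with p50 and p52 in the nucleus, was at 7.82, 7.84 and 7.75 (7.81 ± 0.05 SD, n = 3), close to background. Nfkbid, the remaining atypical IκB, was the exception, at 6.31, 6.31 and 6.21 (6.28 ± 0.06 SD, n = 3). Of the 3 atypical IκB genes, 2 thus passed, and among the classical ones Nfkbia passed on 5 of 5 probe sets and Nfkbib and Nfkbie on 1 of 2 each. The deubiquitinase gene Cyld was at 9.62 ± 0.06 and Tnip1, which encodes a partner of A20, at 11.35 ± 0.04 (SD, n = 3).

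Of 13 receptor genes, 9 were above background (69.2%), against 54.4% of all genes. Tnfrsf1a, which encodes the main receptor for tumour necrosis factor, was at 12.27, 12.28 and 12.26 (12.27 ± 0.012 SD, n = 3). The interleukin 1 receptor gene Il1r1 was at 8.81 ± 0.04 and Tlr4, the receptor for lipopolysaccharide, at 8.48 ± 0.09 (SD, n = 3). Il1r1 passed on 1 of its 2 probe sets and Tlr4 on 2 of 4. Cd40, Tnfrsf11a, Tnfrsf13c and Il18r1, receptors known mainly from immune and bone cells, were not above background.

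None of the 10 measured ligand genes was above background, against 54.4% of all genes. Tnf, which encodes tumour necrosis factor, was at 7.08, 7.01 and 6.85 (6.98 ± 0.12 SD, n = 3) and Il1b at 6.38, 6.36 and 6.24 (6.33 ± 0.08 SD, n = 3). Il1a, Lta, Ltb, Tnfsf11, Tnfsf13b, Tnfsf14, Cd40lg and Il18 ranged in mean from 4.94 to 7.09. The receptor genes Tnfrsf1a and Il1r1 were therefore above background, Il1r1 on 1 of its 2 probe sets, and these ligands were not. Tnf, Il1b, Il1a, Lta, Ltb, Cd40lg and Il18 had 1 probe set each, and 39.2% of all genes with 1 probe set were above background.

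Of 30 genes known as NF-κB targets, 19 were above background (63.3%), not far from the 54.4% of all genes. Ccl2, a chemokine for monocytes, was at 10.58, 10.73 and 10.61 (10.64 ± 0.08 SD, n = 3), and Cxcl1, a chemokine for neutrophils, at 12.27, 12.28 and 12.29 (12.28 ± 0.013 SD, n = 3). The cytokine gene Il6 was at 9.34, 9.49 and 9.37 (9.40 ± 0.08 SD, n = 3). Of protective targets, Sod2, the mitochondrial superoxide dismutase, was at 12.57 ± 0.05, the survival genes Birc3 and Ier3 at 9.23 ± 0.02 and 11.30 ± 0.08, and Gadd45b, a stress gene that restrains JNK signalling, at 10.37 ± 0.15 (SD, n = 3). Birc3 passed on 1 of its 2 probe sets and Gadd45b on 2 of 3. The growth factor gene Csf1 was at 11.13 ± 0.02 (SD, n = 3), with all 4 probe sets above background. The targets not above background were Ccl20, Cxcl2, Csf2, Icam1, Sele, Nos2, Mmp3, Mmp9, Lcn2, Traf1 and Zc3h12a, among them Icam1, an adhesion molecule, at 6.16 ± 0.04 (SD, n = 3). These targets answer to other factors too. The median SD of the 19 above background was 0.077, against 0.070 for the 9 receptor genes and 0.048 for all genes above background. It was 0.054 for the signalling genes, 0.040 for the further inhibitors and negative regulators and 0.035 for the cofactor genes above background.

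**Figure D4:**
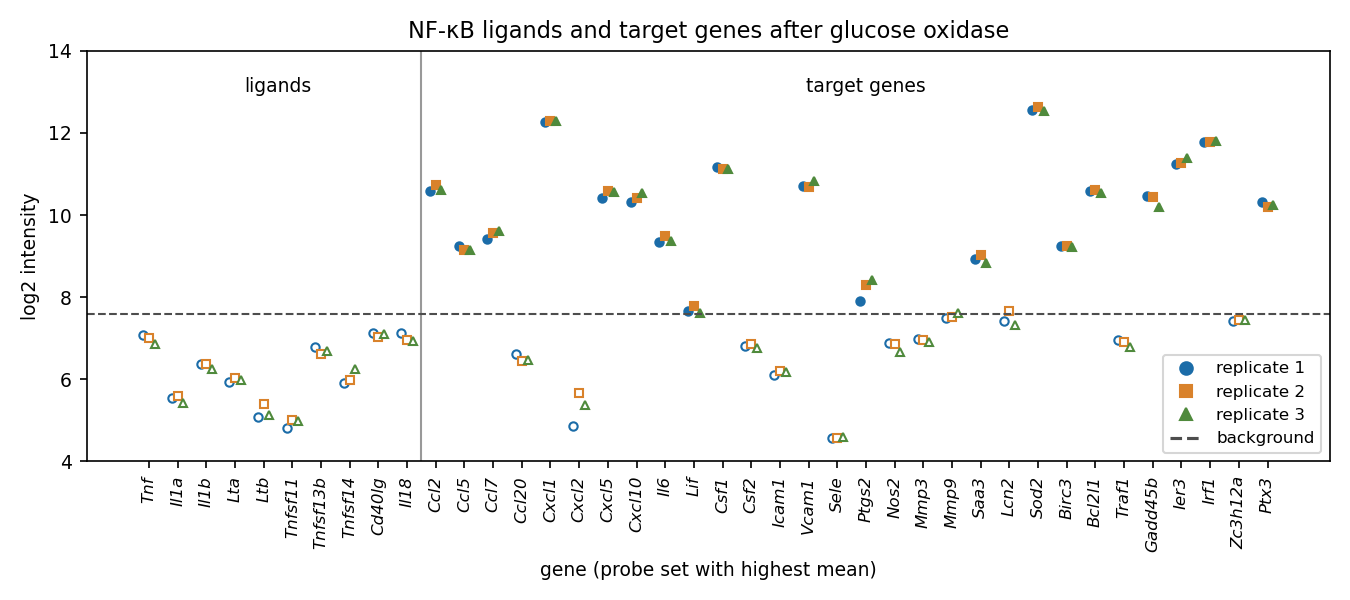
Log2 intensity (y axis) of 10 ligand genes and 30 NF-κB target genes (x axis) on the probe set with the highest mean, with 1 symbol per replicate, open symbols for genes not above background and background as a dashed line at 7.58. All ligands lie below the line, while 19 of the targets, such as Cxcl1 and Sod2, lie above it. Heights of different genes are not comparable.

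All 6 measured genes for nuclear cofactors were above background, against 54.4% of all genes. Apex1, which encodes a nuclear protein that keeps a DNA-binding cysteine of NF-κB reduced, was at 11.65, 11.62 and 11.64 (11.64 ± 0.02 SD, n = 3). Ep300, which encodes an acetyltransferase recruited by p65, was at 9.15, 9.05 and 9.28 (9.16 ± 0.11 SD, n = 3).

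**Figure D5:**
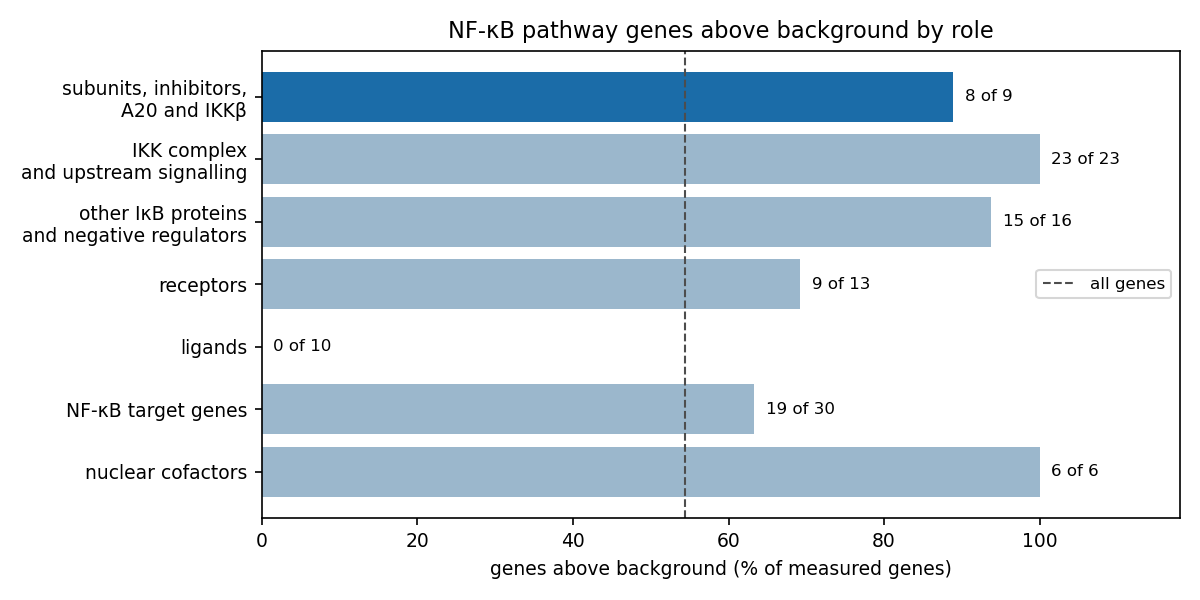
Share of measured genes above background (x axis, %) for the subunits, inhibitors, A20 and IKKβ and for 6 lists of other pathway genes (y axis), with the counts beside the bars and the share of all genes, 54.4%, as a dashed line. The subunits, inhibitors, A20 and IKKβ stand at 8 of 9, signalling genes at 23 of 23 and ligands at 0 of 10.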

How the data were processed

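RNA from 3 glucose oxidase samples was measured on the mouse4302 array. The authors used RMA, as implemented in affyPLM, for background correction and normalization, and no source used here names the version. The deposited intensities are linear, so they were converted to log2 with no further scaling. It stays unknown which arrays were normalized together and whether any scaling or centring followed. With 3 arrays the precision is limited by their number.

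The platform annotation gave the gene of each probe set (34958 with 1 gene, 932 with several, 9211 with none). Of the first, 34754 matched the RefSeq genes of GRCm38.p6 by Entrez identifier and 0 symbols changed. Each gene was represented by the probe set of highest mean. The background percentile was taken over the means of the 3 arrays. With 1 group, no test was made.

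The members and lists were chosen with earlier results of these data known. All members were named, with a fixed choice of pathway genes and those of each list not above background. The other gene lists held 108 genes, of which 98 were measured. The alternatives varied the background, the probe sets, the centring and the replicates. Python 3.11.15, pandas 2.3.3, numpy 2.4.6 and matplotlib 3.10.9 were used.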

Additional observations from a re-analysis of the deposited data

How the results depend on the processing

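No paired analysis was possible because there is only 1 group. Under each of 10 alternatives, the count of pathway genes above background moved by less than 1.5 times. Without probe sets whose identifiers end in _a_at, _s_at or _x_at, which can match several transcripts, 6 members were left to measure and 4 were above background, with 8 of 11 probe sets, beside 49.7% of all genes. The median SD was then 0.026, beside 0.049 for all genes above background, and 2 members each were highest in replicates 2 and 3. This setting removes every probe set of Nfkb2, Rela and Nfkbie. On leaving out each replicate in turn the median SD ran from 0.025 to 0.042, and the count of members above background stayed at 8. Taking for each gene the median over its probe sets, 7 members were above background, without Nfkbie, beside 43.8% of all genes. Signal near background limits several calls, among them Lif, at 7.69, Nfkbie, at 7.74, Bcl3, at 7.81, Ikbke, at 7.82, and Traf6, at 7.87. Of the targets called not above background, Lcn2 exceeded 7.58 in replicate 2, at 7.67, and Mmp9 in replicate 3, at 7.61. The lymphocyte markers Cd8a, Cd4 and Cd3e passed the line too, at 7.62, 7.75 and 8.27, although the samples were a fat cell line.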
